A study of Mus musculus with 12 samples.

Results

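The nuclear genes for the subunits of the mitochondrial respiratory chain and ATP synthase were examined in J1, an established line of mouse embryonic stem cells, after 24 h of retinoic acid or of vitamin C. Members were the genes whose symbol begins with Ndufa, Ndufb, Ndufc, Ndufs, Ndufv, Sdha to Sdhd, Uqcr, Cox4 to Cox8 or Atp5, without the assembly factors Ndufaf and Sdhaf. The rule matched 107 symbols of the reference, of which 88 are annotated as protein coding and 19 as pseudogenes. A probe was present for 84 of them among 18749 named genes on the array design used for vitamin C, and for 85 of them among 20660 named genes on the design used for retinoic acid. On each design 84 had a signal well over background on 3 or more of the 6 arrays and were tested, including 37 and 38 genes of complex I, 4 and 4 of complex II, 8 and 8 of complex III, 18 and 17 of complex IV, and 17 and 17 of complex V, for vitamin C and retinoic acid in that order.

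Every culture was grown without feeder cells on gelatin, in serum replacement medium with leukaemia inhibitory factor (LIF) at 1000 U/mL, and the labels name this one cell line only. The groups of 3 arrays each received retinoic acid at 1 μM (RA), DMSO at 1 μL, vitamin C at 50 μg (VC) or double-distilled water at 1 μL (ddH2O). The labels give no volume for the amounts in μg and μL, and name no separate cultures for the 3 arrays of a group, so p-values rest on the spread among these arrays alone, which could be technical. VC was compared with ddH2O and RA with DMSO, on different Agilent designs that were scaled separately, so no level is set across them.

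The subunits build the complexes that turn the energy of food into ATP. Complex I (NADH dehydrogenase) and complex II (succinate dehydrogenase) hand electrons to ubiquinone, complex III (cytochrome bc1) passes them to cytochrome c, and complex IV (cytochrome c oxidase) gives them to oxygen, while complex V (ATP synthase) uses the resulting proton gradient to make ATP. Mitochondrial DNA encodes part of every complex other than complex II, and the remaining subunits are nuclear genes such as those measured here. Embryonic stem cells are known for a strong reliance on glycolysis with immature mitochondria, and several of these subunits have a second isoform used in muscle, testis or low oxygen. None of the 13 mitochondrial DNA genes for respiratory proteins had a named probe here.

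Promoters of 71 members were found in the RefSeq table for GRCm38.p6, each reaching from 250 bases before to 50 bases after a transcription start. They are shown for 4 members whose RA values follow and which carry a short motif of a factor known to act on mitochondrial genes. Capitals mark the motif. Uqcrc1 at chr9:108936398-108936697, plus strand, and Atp5k at chr5:108434350-108434649, minus strand, hold the NRF1 motif. Ndufs7 at chr10:80249199-80249498, plus strand, holds the YY1 motif, and Sdhd at chr9:50603800-50604099, minus strand, holds the motif of the oestrogen-related receptors (ERR) on the opposite strand.
Uqcrc1: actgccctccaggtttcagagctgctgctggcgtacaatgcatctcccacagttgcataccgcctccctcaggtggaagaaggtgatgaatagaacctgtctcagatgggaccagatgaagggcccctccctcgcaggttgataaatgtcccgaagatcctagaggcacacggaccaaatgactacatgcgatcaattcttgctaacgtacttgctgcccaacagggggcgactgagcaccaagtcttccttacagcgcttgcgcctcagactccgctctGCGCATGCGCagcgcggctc
Atp5k: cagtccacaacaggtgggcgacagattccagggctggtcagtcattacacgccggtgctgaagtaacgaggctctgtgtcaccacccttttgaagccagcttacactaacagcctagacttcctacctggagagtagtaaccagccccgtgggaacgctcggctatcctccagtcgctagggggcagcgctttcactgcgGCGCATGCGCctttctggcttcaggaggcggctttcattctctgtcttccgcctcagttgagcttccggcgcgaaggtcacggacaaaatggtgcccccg
Ndufs7: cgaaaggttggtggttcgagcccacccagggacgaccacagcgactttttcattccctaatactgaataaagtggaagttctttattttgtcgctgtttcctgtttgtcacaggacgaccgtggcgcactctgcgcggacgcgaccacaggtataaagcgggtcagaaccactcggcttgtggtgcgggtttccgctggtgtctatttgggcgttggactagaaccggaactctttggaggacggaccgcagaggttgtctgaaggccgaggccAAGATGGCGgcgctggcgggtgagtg
Sdhd: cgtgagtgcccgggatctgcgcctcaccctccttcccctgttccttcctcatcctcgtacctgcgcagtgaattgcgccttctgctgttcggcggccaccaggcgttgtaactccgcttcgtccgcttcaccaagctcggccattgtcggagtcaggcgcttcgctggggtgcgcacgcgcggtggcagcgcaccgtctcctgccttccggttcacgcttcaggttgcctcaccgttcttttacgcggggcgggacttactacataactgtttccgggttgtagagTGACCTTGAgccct

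The 4 motifs searched, on both strands, were GCGCATGCG for NRF1, CCGGAAGT for GABP and other ETS factors, TCAAGGTCA for ERR and AAGATGGCG for YY1. NRF1 letters stood in the promoters of 8 of the 71 members (11.3%), compared with 3.41% of the 12712 genes tested on the RA design that had a promoter and 1.95% of all 27025 genes in the table. In Uqcrc1 and Atp5k, as in Atp5g2, Cox6a1 and Ndufa11, the NRF1 match was read on both strands at overlapping positions, since its letters are nearly a palindrome. YY1 letters stood in 7 members (9.86%, compared with 2.93% and 1.64%): Atp5j, Atp5j2, Ndufa9, Ndufc1, Ndufs4, Ndufs6 and Ndufs7. ERR letters stood in Sdhd and Atp5g3 (2.82%, compared with 0.385% and 0.466%). GABP letters stood in 5 members (7.04%, compared with 7.47% and 4.31%). In no member promoter did the letters of different factors overlap. Among 69 genes of the mitochondrial ribosome the shares were 10.1% for NRF1, 11.6% for YY1, 17.4% for GABP and 0% for ERR. Of the 59 members with a promoter that were called lower in RA, 7 held NRF1 letters (11.9%). Of the 9 tested and not called lower, 1 did (11.1%). The same counts were 7 of 59 and 0 of 9 for YY1, 4 of 59 and 1 of 9 for GABP, and 1 of 59 and 1 of 9 for ERR. A match is a description of these letters and not of a bound site.

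After RA, 71 of the 84 subunit genes fell, 3 rose and 10 were not called at an adjusted p under 0.05 from limma (Benjamini-Hochberg adjustment over all 16015 genes). RA moved much of the transcriptome at this threshold, since 42.1% of all genes tested were lower and 35.9% higher. The median log2 difference over the subunit genes was -0.58, and over all genes tested -0.0748. In each of the 3 RA arrays the median over the subunit genes lay below the DMSO mean, at -0.595, -0.62 and -0.523, while the DMSO arrays lay at -0.017, 0.01 and 0.002. For 72 members every RA array lay below every DMSO array (44.4% of all genes tested), and for 4 every RA array lay above (37.4%). For 78 members the difference lay below 0, compared with 52.7% of all genes and 69.8% of the brightest 25%. Falls of at least 2-fold were called for 12 members, 14.3% of those tested, compared with 15% of all genes tested. They made up 16.9% of the members' falls, compared with 35.7% of the falls of all genes.

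**Figure D1:**
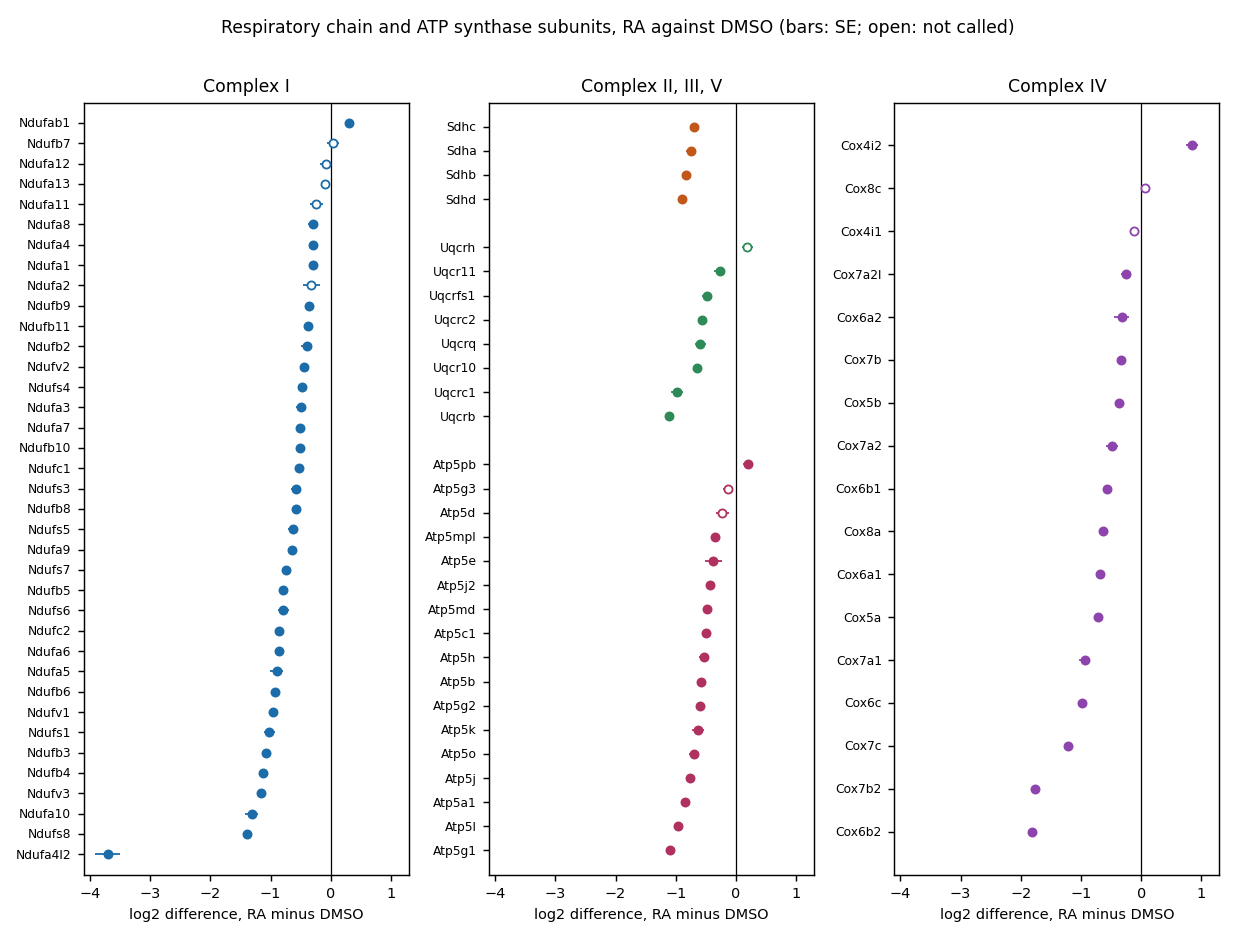
Log2 difference (RA minus DMSO, x axis) of 83 of the 84 tested subunit genes (y axis), in panels by complex; bars are the standard error of the fit with 3 arrays per group, filled points are called at an adjusted p under 0.05 and open points are not. Nearly all points lie left of 0, Ndufa4l2 lies farthest left at -3.71, and Cox4i2 lies farthest right at 0.84.

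The probes of the subunit genes were bright, and 78 of the 84 genes lay among the brightest 25% of the genes tested. Of the genes in that range, 58.5% of 4004 were lower, 20.5% were higher and the median difference was -0.331, against -0.587 for the 78 members. The size of the shift also moved with the scaling, which sets 0. Centring arrays on their median moved the median of all genes by -0.34 and spike-in scaling moved it by -0.39. Both add one constant to all genes of an array, which leaves the members' median relative to all genes at -0.505. With quantile normalization this relative median was -0.208, and with normexp background correction it was -0.734. Quantile normalization, which forces the same distribution on every array, gave 47 members lower and 9 higher with a median of -0.244, so that 24 of the 71 falls were not called. Under it 38.7% of all genes were lower and 35.2% higher, and among the brightest 25% these shares were 39.6% and 32.7%. The 4 scalings called 47 members lower in common and none higher in common, and 5 were called both ways between them (Atp5g3, Cox4i1, Ndufa12, Ndufa13 and Ndufb7). Rises made 4.05% of the calls among members, and 1.23%, 0% and 16.1% of them under median, spike-in and quantile scaling. Among all genes these shares were 46%, 31.1%, 28.7% and 47.6%.

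**Figure D2:**
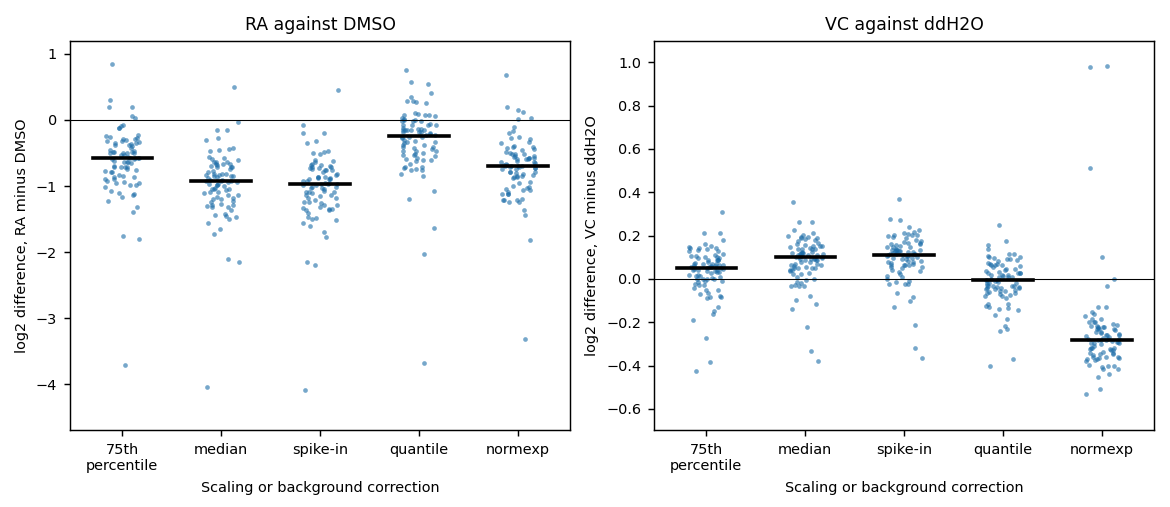
Log2 difference of each tested subunit gene (points) under 5 ways of scaling the arrays or correcting background (x axis), for RA minus DMSO and VC minus ddH2O; black lines are medians over the 84 genes. For RA every median lies below 0, from -0.968 with spike-in scaling to -0.244 with quantile normalization, and for VC the medians lie on both sides of 0.

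All 3 DMSO arrays shared one slide and all 3 RA arrays another, so slide and treatment cannot be told apart in this comparison. Cell type markers moved as well. The summed level of 8 embryonic stem cell markers, in multiples of each array's 75th percentile, was 496 to 517 in DMSO and 81.5 to 92.4 in RA, with 7 of the 8 lower and Nanog higher. That of the fibroblast markers was 2.21 to 2.36 and 38.6 to 41.4, with 7 of 8 tested higher, Thy1 lower, and Lum and Postn not detected on any array. The sum of the blood and endothelium markers was 9.95 to 10.7 and 10.2 to 15.9, with Cdh5 and Hbb-bt not detected. Their part in the subunit result was not tested, and in bulk RNA fewer cells of a type and less RNA per cell cannot be told apart.

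**Figure D3:**
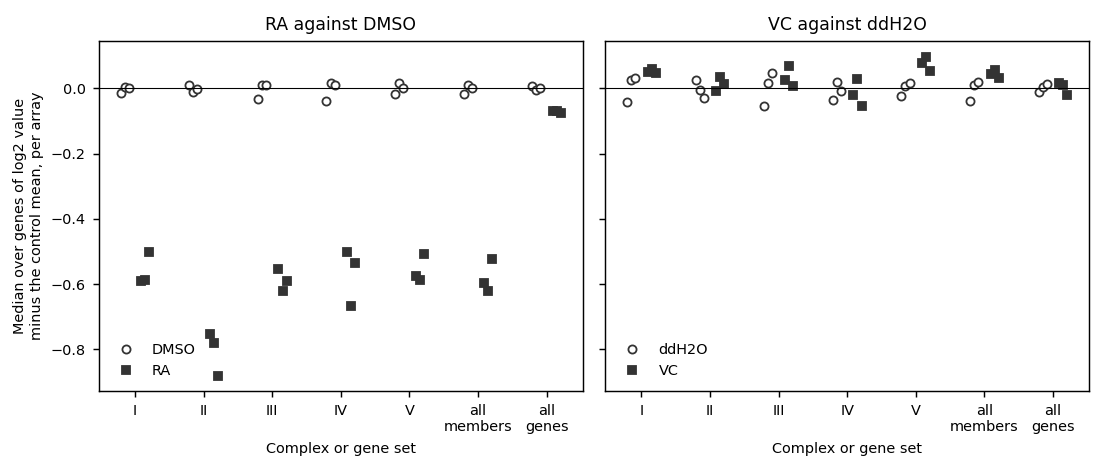
Median over genes of the log2 value minus the control mean (y axis), 1 point per array, for each complex, for all tested subunit genes and for all genes tested; open circles are DMSO or ddH2O arrays and filled squares RA or VC arrays. In the RA panel the 3 RA arrays of every complex lie at -0.5 or lower and complex II lies lowest, whereas over all genes they lie at -0.077 to -0.07.

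In complex I, 32 of 38 subunits fell, 1 rose and 5 were not called (median -0.577). With quantile normalization 21 were lower and 4 higher (median -0.21). The 6 core subunits described here fell. The core carries the flavin and iron-sulfur centres. Each value below is the log2 signal of one array minus the 75th percentile of that array, so that 0 is the level of the percentile. Ndufs8, which binds a pair of iron-sulfur clusters on the path to ubiquinone, read 3.37, 3.29 and 3.31 in DMSO and 1.96, 2.01 and 1.82 in RA. It fell by 1.39 (SE 0.071, adjusted p = 7.955e-06), the largest fall of these 6. Ndufs1, which holds iron-sulfur clusters of the NADH-oxidising arm, read 5.71, 5.79 and 5.83 in DMSO and 4.75, 4.91 and 4.603 in RA, 2.03-fold lower. Ndufv1, which binds FMN and NADH, read 6.401, 6.43 and 6.398 in DMSO and 5.45, 5.41 and 5.51 in RA, 1.94-fold lower. In all 3 the groups lay well apart. The remaining 3 fell by less: Ndufs7, whose promoter is shown above, by 1.67-fold, Ndufs3 by 1.49-fold and Ndufv2 by 1.37-fold (adjusted p from 9.779e-05 to 0.0008645). With quantile normalization Ndufv2 was at -0.074 and not called.

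Of the 31 tested genes counted by symbol as supernumerary subunits, 25 fell, 1 rose and 5 were not called (median -0.504). Ndufa4l2 moved most of all members. It is a paralog of Ndufa4 known as a target of hypoxia-inducible factor. Its values were 2.57, 2.63 and 2.65 in DMSO and -1.11, -1.51 and -0.66 in RA, so it fell by 3.71 (SE 0.21, 13.1-fold, adjusted p = 1.103e-05), and the RA arrays spread more widely than the DMSO arrays. Ndufa4, the ubiquitous paralog, is now placed in complex IV. Both Ndufa4 and Ndufa4l2 are counted here with complex I by their symbols alone. Ndufa4 read 5.42, 5.42 and 5.35 and 5.102, 5.03 and 5.17. It fell by 0.29 on the log2 scale, but with quantile normalization its difference was 0.065. Ndufa10 read 3.93, 3.94 and 3.94 in DMSO and 2.68, 2.796 and 2.396 in RA, 2.49-fold lower. Ndufv3, an accessory subunit of the NADH-oxidising arm, read 6.71, 6.82 and 6.75 and 5.597, 5.54 and 5.65, 2.24-fold lower, although its other probe gave a log2 difference of -0.68 in place of -1.16. Ndufb4 and Ndufb3, of the membrane arm, were 2.19-fold and 2.11-fold lower.

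Ndufab1, the mitochondrial acyl carrier protein, which also serves fatty acid and lipoic acid synthesis, was the complex I gene that rose. Its values were 0.58, 0.65 and 0.62 in DMSO and 0.92, 0.997 and 0.87 in RA, 1.24-fold higher (adjusted p = 0.003759), but under median and spike-in scaling the difference was -0.032 and -0.078. The 5 subunits that were not called were Ndufa2, Ndufa11, Ndufa12, Ndufa13 and Ndufb7. Ndufa2 read 6.35, 6.31 and 6.29 in DMSO and 5.83, 5.86 and 6.303 in RA, with a difference of -0.32 (adjusted p = 0.06851). Only RA array 3 reached the DMSO range, and quantile normalization turned the difference to 0.028. Ndufa11 read 4.32, 4.31 and 4.402 and 4.21, 3.89 and 4.21, and the groups did not overlap at a difference of -0.24 (adjusted p = 0.07381), which quantile normalization turned to 0.076. Ndufa12, Ndufa13, which is also known as Grim-19, and Ndufb7 overlapped between groups, with differences of -0.08, -0.091 and 0.037. Quantile normalization turned Ndufa12 and Ndufa13 to 0.263 and 0.289, and median scaling turned Ndufb7 to -0.304.

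All 4 subunits of complex II fell, with a median of -0.789, and all 4 were also called lower under the median, spike-in and quantile scalings. Complex II works both in the chain and in the citrate cycle. Sdhd, the small membrane anchor whose promoter is shown above, read 5.72, 5.66 and 5.62 in DMSO and 4.77, 4.84 and 4.72 in RA, 1.85-fold lower (adjusted p = 3.098e-05). Sdhb, the iron-sulfur subunit, read 6.06, 6.06 and 6.11 and 5.31, 5.23 and 5.21, 1.77-fold lower. Sdha, the flavoprotein that oxidises succinate, read 4.92, 4.94 and 4.99 and 4.26, 4.28 and 4.06, 1.68-fold lower. The falls of complex II thus ranged from 1.63-fold to 1.85-fold. Sdhc, the other membrane anchor, read 4.81, 4.78 and 4.72 and 4.03, 4.04 and 4.13, 1.63-fold lower. The second probes of Sdhb and Sdhc gave -0.994 and -0.682.

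In complex III, 7 of 8 subunits fell and 1 was not called (median -0.577), but with quantile normalization 3 were lower and 1 higher (median -0.198). Uqcrb, which lines the ubiquinone-binding part of the complex, read 6.24, 6.24 and 6.304 in DMSO and 5.09, 5.15 and 5.19 in RA, 2.17-fold lower (adjusted p = 9.775e-06), and its other probes gave -1.15 to -1.10. Uqcrc1, a large core protein whose promoter with the NRF1 letters is shown above, read 4.21, 4.24 and 4.31 and 3.29, 3.08 and 3.44, 1.98-fold lower. The small subunits Uqcr10 and Uqcrq were 1.56-fold and 1.51-fold lower. Uqcrfs1, the Rieske iron-sulfur protein, is one of the catalytic subunits. It read 4.79, 4.75 and 4.803 in DMSO and 4.38, 4.39 and 4.12 in RA, 1.396-fold lower (adjusted p = 0.002771). With quantile normalization neither Uqcrfs1, at -0.147, nor Uqcrq, at -0.205, was called. Cyc1, the catalytic cytochrome c1, whose symbol lies outside the rule, was 1.41-fold lower (adjusted p = 0.001168). Uqcrh, the hinge protein between cytochrome c1 and cytochrome c, stood apart from these. It read 6.47, 6.59 and 6.500 in DMSO and 6.65, 6.61 and 6.88 in RA, and the groups did not overlap, at a difference of 0.19 that was not called (adjusted p = 0.09371). Its other probe gave 0.151. Under median and spike-in scaling the difference of Uqcrh was -0.15 and -0.197, and with quantile normalization it was 0.574 and called higher.

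In complex IV, 14 of 17 nuclear subunits fell, 1 rose and 2 were not called (median -0.568), and with quantile normalization 10 were lower and 2 higher (median -0.323). Several of these subunits exist as a ubiquitous and a tissue-restricted isoform, and these are given side by side, without a test of the difference between isoforms. Cox6b2, known from testis, read 3.22, 3.28 and 3.33 in DMSO and 1.49, 1.42 and 1.49 in RA, 3.501-fold lower (adjusted p = 1.323e-06). Cox6b1, its ubiquitous counterpart, read 3.24, 3.33 and 3.34 and 2.81, 2.63 and 2.77, 1.48-fold lower. Cox7b2, another testis isoform, read -1.66, -1.63 and -1.697 and -3.46, -3.495 and -3.304, 3.39-fold lower (adjusted p = 3.115e-06). With normexp background correction the difference of Cox7b2, a dim gene, was -0.67 in place of -1.76, and that of Cox6b2 was -1.81. Cox7b, the ubiquitous form, read 6.52, 6.47 and 6.52 and 6.16, 6.14 and 6.21, 1.26-fold lower, and quantile normalization turned its difference to 0.012.

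Cox4i2, the isoform of subunit 4 known from lung and from low oxygen, was the one complex IV gene that rose. It read -1.19, -1.25 and -0.95 in DMSO and -0.17, -0.35 and -0.34 in RA, 1.79-fold higher (SE 0.10 on the log2 scale, adjusted p = 0.0003359). Its difference stayed positive under median and quantile scaling, and with spike-in scaling it was 0.456 and not called. Cox4i1, the ubiquitous form, read 7.64, 7.74 and 7.71 in DMSO and 7.55, 7.53 and 7.67 in RA, and the groups overlapped at a difference of -0.12 that was not called (adjusted p = 0.1557). With quantile normalization the difference of Cox4i1 was 0.281. Among the isoforms of subunit 7a, the muscle form Cox7a1 read 3.66, 3.72 and 3.73 and 2.71, 2.65 and 2.92, 1.92-fold lower. Cox7a2 was 1.402-fold lower, but with quantile normalization it was at -0.146 and not called. Cox7a2l, which is known for its part in joining complexes III and IV, was 1.19-fold lower, and quantile normalization turned its difference to 0.095.

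Of subunit 8, Cox8a read 7.62, 7.64 and 7.61 in DMSO and 6.999, 6.89 and 7.05 in RA, 1.56-fold lower. The testis form Cox8c read -0.999, -0.91 and -0.98 and -0.91, -0.98 and -0.79 and was not called (adjusted p = 0.4189), and its difference of 0.067 turned to -0.274 with median scaling, -0.321 with spike-in scaling and -0.058 with quantile normalization. The muscle form Cox8b was well above background on none of the RA and DMSO arrays and was not tested. Of subunit 6a, Cox6a1 was 1.61-fold lower, and the muscle form Cox6a2 was 1.25-fold lower with overlapping groups (adjusted p = 0.04608). With normexp background correction the difference of Cox6a2 was 0.144.

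**Figure D4:**
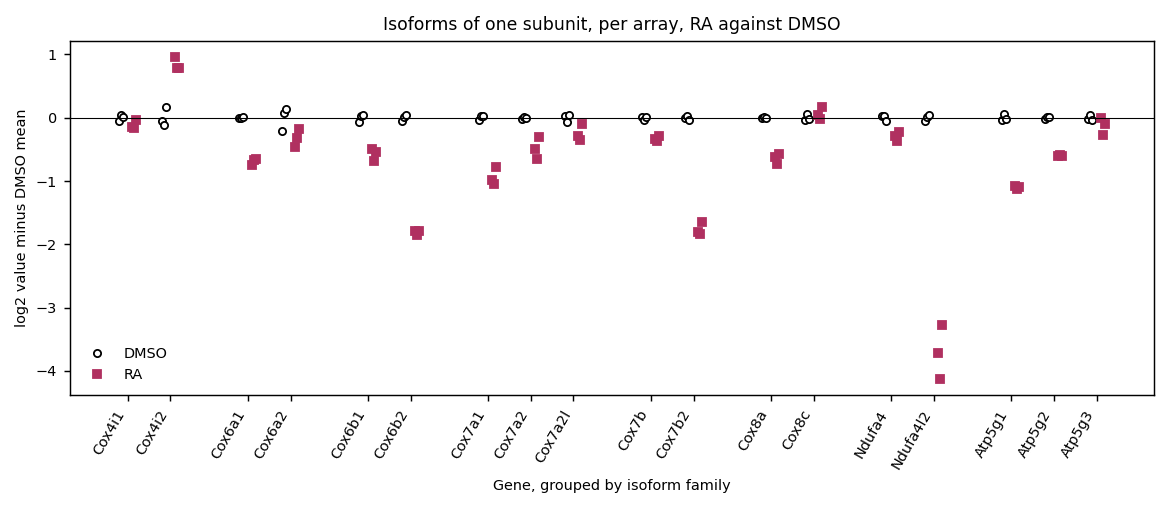
Log2 value minus the DMSO mean (y axis) of each isoform (x axis, grouped by family) on the 3 DMSO arrays (open circles) and the 3 RA arrays (squares). Ndufa4l2, Cox6b2 and Cox7b2 lie lowest on every RA array, Cox4i2 lies above its DMSO arrays, and Cox4i1, Cox8c and Atp5g3 overlap theirs.

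Among the complex IV subunits without such a pair on the array, Cox7c read 6.37, 6.297 and 6.33 in DMSO and 5.098, 5.06 and 5.19 in RA, 2.33-fold lower, although its other probes gave smaller log2 differences of -0.672 and -0.637. Cox6c read 7.01, 6.996 and 6.96 and 5.94, 5.95 and 6.13, 1.98-fold lower. Cox5a and Cox5b, which surround the catalytic core encoded in mitochondrial DNA, were 1.65-fold and 1.29-fold lower (adjusted p = 6.075e-05 and 0.002922), but with quantile normalization Cox5b was at -0.022 and not called.

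In complex V, 14 of 17 subunits fell, 1 rose and 2 were not called (median -0.529), but with quantile normalization 9 were lower and 2 higher (median -0.158). Atp5a1 and Atp5b, the alpha and beta subunits that form the catalytic head, both fell. Atp5a1 read 6.75, 6.77 and 6.82 in DMSO and 5.95, 5.92 and 5.92 in RA, 1.798-fold lower (adjusted p = 2.234e-05). Atp5b read 8.13, 8.25 and 8.19 and 7.62, 7.604 and 7.61, 1.497-fold lower (adjusted p = 0.000167). In the central stalk, Atp5c1 and Atp5e were 1.42-fold and 1.296-fold lower, but with quantile normalization Atp5e was at -0.021 and not called. The remaining stalk subunit Atp5d, delta, read 4.804, 4.85 and 4.85 in DMSO and 4.703, 4.39 and 4.73 in RA, without overlap, and was not called (adjusted p = 0.08593), and quantile normalization turned its difference to 0.109.

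The rotating c-ring is made of one protein encoded by 3 genes that differ in their import sequence, and of these Atp5g1 and Atp5g2 fell. Atp5g1 read 6.96, 7.05 and 6.97 in DMSO and 5.92, 5.87 and 5.897 in RA, 2.14-fold lower (adjusted p = 9.06e-06). Atp5g2 read 8.17, 8.21 and 8.21 and 7.596, 7.62 and 7.598, 1.51-fold lower. Atp5g3 read 6.87, 6.93 and 6.85 and 6.88, 6.62 and 6.78, overlapped between groups and was not called (difference -0.12, adjusted p = 0.2049). With quantile normalization Atp5g3 was at 0.274 and called higher. Whether the fall of Atp5g1 differed from that of Atp5g3 was not tested. In the peripheral stalk, Atp5j, Atp5o and Atp5h were 1.702-fold, 1.63-fold and 1.44-fold lower, and with quantile normalization Atp5h was at -0.129 and not called. Atp5pb, subunit b of the same stalk, was the complex V gene that rose, from 5.17, 5.09 and 5.27 in DMSO to 5.42, 5.398 and 5.298 in RA (1.15-fold, adjusted p = 0.04714). This rise was lost when array 1 or 2 of RA or of DMSO was left out, and under median and spike-in scaling the difference was -0.145 and -0.191. Of the membrane subunits, Atp5l read 6.59, 6.63 and 6.62 in DMSO and 5.603, 5.65 and 5.72 in RA, 1.94-fold lower, with its other probes at -1.09 to -0.871. Atp5k, whose promoter is shown above, was 1.55-fold lower.

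The falls were close between arrays. The SD of a member over the 3 arrays of its group had a median of 0.04 in DMSO and 0.089 in RA on the log2 scale. Of the RA arrays, array 2 was the lowest for 48 of the 84 members and array 3 was the highest for 52. For 22 members other detected probes existed on the RA design, and for all 22 every probe had the sign of the brightest one. Leaving out one array at a time gave between 66 and 74 members lower, with medians from -0.598 to -0.567. The calls of Atp5e, Atp5pb, Cox6a2, Cox7a2l, Ndufa8 and Uqcr11 were lost when at least one array was left out, and Atp5d, Cox4i1 and Ndufa2 were called lower without RA array 3. Processed copies or near-identical genes are annotated for Ndufa11, Ndufa12, Ndufab1, Ndufb4, Ndufs5, Ndufs6, Uqcrh, Cox5b, Cox6c, Cox7c, Atp5c1, Atp5k, Atp5l and Atp5pb, whose transcripts the probes may not tell apart.

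Other genes for mitochondrial energy metabolism were counted in the same fit. In that fit 42.1% of all genes tested were lower and 35.9% higher, and 58.5% of the brightest 25% were lower. Quantile normalization cut the falls of the subunit genes from 71 to 47. The counts of the lists here, and of the assembly factors, nucleotide carriers and regulators below, were not examined under other scalings. In the mitochondrial ribosome, which translates the subunits encoded in mitochondrial DNA, 67 of 77 genes were lower in RA and 4 were higher (median -0.679), led by Mrps5 (3.401-fold lower), Mrpl35 (3.38-fold) and Mrps31 (3.31-fold), while Mrpl54 was 1.44-fold higher. In the citrate cycle 12 of 14 genes were lower and none higher. Idh3a, a subunit of isocitrate dehydrogenase, fell by 1.80 on the log2 scale and Suclg1, of succinyl-CoA ligase, by 0.97. Of 17 genes for electron carriers, including cytochrome c and ubiquinone synthesis, 14 were lower, among them Coq8a (2.24-fold) and Pdss1 (2.14-fold). Coq3 was at least 1.85-fold lower, a bound because no RA array had it well above background (adjusted p = 0.0007907).

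Most assembly factors of complexes I and IV also fell. For complex I, 12 of 15 were lower, with Ecsit 3.34-fold and Foxred1 2.27-fold lower, and Timmdc1, an assembly factor of the membrane arm, was 2.66-fold higher (adjusted p = 5.059e-05). For complex IV, 15 of 21 were lower and Sco2, a copper chaperone, was 1.12-fold higher. Counts for complexes II, III and V were 3 of 4, 2 of 5 and 3 of 3 lower, and that of complex III lay near the share of all genes. Of the 9 adenine nucleotide and phosphate carriers, 7 were lower. Slc25a5, an ADP/ATP carrier of dividing cells, was 3.08-fold lower, and Slc25a4, the carrier of muscle and heart, was 1.15-fold higher. The rises of Sco2 and Slc25a4 were smaller than the shift of -0.34 that median scaling makes in every gene.

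Of 20 transcription factors, coactivators and mitochondrial DNA enzymes tested, 14 were lower in RA and 3 higher. Of all genes tested 42.1% were lower and 35.9% higher. Esrrb, an oestrogen-related receptor of the stem cell state, was 62.1-fold lower, Ppargc1b, the coactivator PGC-1 beta, 6.702-fold lower and Myc 2.96-fold lower. Tfam, which packs and transcribes mitochondrial DNA, was 1.76-fold lower, and Gabpa 1.92-fold lower. Ppargc1a, the coactivator PGC-1 alpha, was well above background on none of the DMSO arrays and was at least 6.5-fold higher in RA (adjusted p = 1.269e-06). Nrf1, whose motif stands in the Uqcrc1 and Atp5k promoters, was 1.399-fold higher, and Polg, the mitochondrial DNA polymerase, 1.54-fold higher. The rises of Nrf1 and Polg would be smaller under median and spike-in scaling, which shift every gene by -0.34 and -0.39. Their calls under these scalings were not examined. Yy1 differed by 0.078 and was not called (adjusted p = 0.3619).

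After VC, 1 of the 84 subunit genes was called, Cox8c, which fell, and none was called higher by limma at an adjusted p under 0.05, while 17.1% of all 14531 genes tested were called, 10.5% lower and 6.59% higher. The median log2 difference was 0.049 over the subunit genes and -0.000588 over all genes. The difference was above 0 for 60 members and below 0 for 24, compared with 50.1% of all genes below 0. Among the brightest 25% of genes, where 78 of the 84 members lay, 38.6% were below 0, 3.72% were called lower and 7.38% higher. With quantile normalization 38 were above 0 and 46 below, so this split depended on the scaling. At an unadjusted p under 0.05 there were 10 members, against 34.7% of all genes. The VC arrays lay at medians of 0.044, 0.057 and 0.033 relative to the ddH2O mean, and the ddH2O arrays at -0.039, 0.01 and 0.018.

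Cox8c, the testis form of subunit 8, read -0.55, -0.69 and -0.74 in ddH2O and -1.11, -0.88 and -1.13 in VC, without overlap. It fell by 0.38 (SE 0.090, 1.303-fold, adjusted p = 0.03616 from limma). The call was lost when any array other than VC array 2 was left out, and with spike-in scaling, normexp, no filter on dim probes or the replicate block (adjusted p = 0.074), and with the slide as a fixed block, where it fell by 0.285. With the slide as a random block Cox8c was still called. Of the subunits that were higher without being called, Atp5d read 4.43, 4.59 and 4.57 and 4.73, 4.805 and 4.98 (difference 0.31, adjusted p = 0.05287). Uqcrc1 read 5.51, 5.42 and 5.63 and 5.68, 5.75 and 5.77 (adjusted p = 0.08295), and its other probe gave 0.263. Cox6b1 read 2.84, 2.85 and 2.95 and 3.03, 3.08 and 3.07 (adjusted p = 0.07568). In these 3 every VC array lay above every ddH2O array. With median scaling Atp5d (0.357) and Cox6b1 (0.228) were called higher, as were Atp5o (0.212) and Ndufa2 (0.203). With spike-in scaling Atp5d (0.37) and Atp5o (0.225) were called higher. Quantile normalization called 0 members higher. In all, 21 members had every VC array above every ddH2O array (20.2% of all genes) and 4 had every VC array below (21.9%). Other detected probes existed for 17 members on the VC design, and for 11 of them every probe had the sign of the brightest one.

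By complex the VC medians were 0.0583 for complex I, 0.0146 for II, 0.0319 for III, 0.0133 for IV and 0.0757 for V. The catalytic subunits of complex V, Atp5a1 and Atp5b, differed by 0.035 and -0.008, and the 4 of complex II by between -0.029 and 0.053. Cox4i2 and Cox8b were well above background on 3 and 4 of the 6 arrays, and Cox6a2 differed by -0.27 (adjusted p = 0.09507). One slide held arrays of both groups, ddH2O arrays 2 and 3 and VC arrays 1 and 2. Within it the median over members was 0.0325, no member was called, and limma called none of the 14531 genes, with 5 members at an unadjusted p under 0.05. ddH2O array 1, alone on its slide, was the lowest of its group for 51 of the 84 members, and without it the median was 0.031. VC array 3, also alone on its slide, was the lowest of its group for 39 members and the highest for 23. Without VC array 3 the median was 0.053.

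Of the 182 genes tested in the other mitochondrial lists, 16 were higher after VC (8.8%) and none lower, compared with 6.59% of all genes higher and 10.5% lower, and 7.38% and 3.72% of the brightest 25%. In the mitochondrial ribosome 8 of 78 genes were higher (median 0.0984), led by Mrps18b (1.33-fold), Mrps2 (1.29-fold) and Mrpl4 (1.24-fold). Ndufaf3 and Ndufaf4, assembly factors of complex I, were 1.23-fold and 1.24-fold higher, and Coa7 and Surf1, of complex IV, 1.31-fold and 1.19-fold higher. Twnk, the mitochondrial helicase, was 1.32-fold higher and Esrrb 1.32-fold higher, as were the carriers Ucp2 (1.34-fold) and Slc25a4 (1.201-fold). The stem cell markers summed to 551 to 631 in ddH2O and 587 to 636 in VC, with 3 of 7 tested called higher and 0 lower. Those of fibroblasts summed to 3.9 to 4.22 and 3.02 to 3.34, with 3 of 8 tested called lower and 0 higher. Blood and endothelium markers summed to 1.27 to 1.33 and 0.894 to 0.961, with 1 of 4 tested called lower, 0 higher, and Cdh5 and Ptprc not detected. The part of these markers in the subunit values was not tested.

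**Figure D5:**
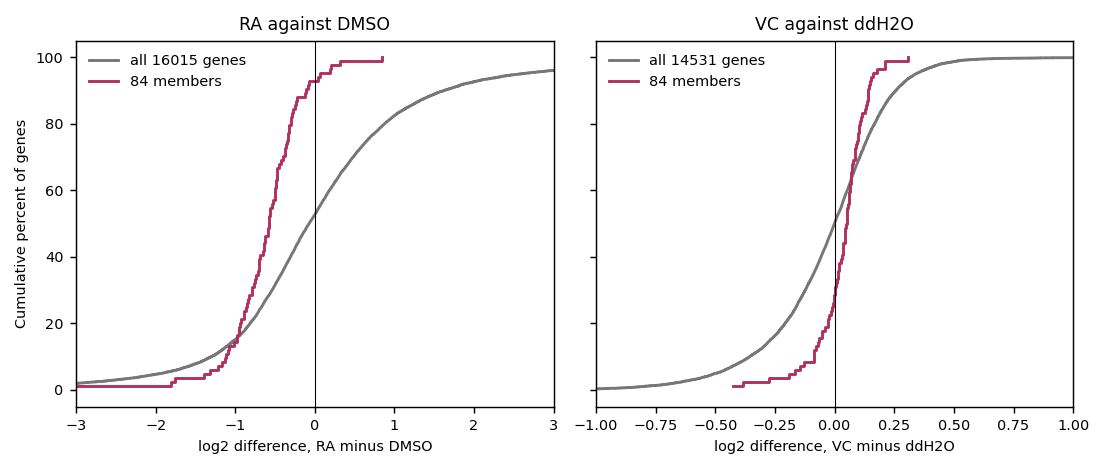
Cumulative percent of genes (y axis) with a log2 difference up to the value on the x axis, for the tested subunit genes (red) and all genes tested (grey), RA minus DMSO and VC minus ddH2O; Ndufa4l2 at -3.71 lies left of the RA axis range. The red RA curve lies left of the grey one over most of its range, with medians of -0.58 and -0.0748, and the red VC curve is steep near 0, with medians of 0.049 and -0.000588.

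The members without a probe on either design were Ndufb1, Ndufb4b, Ndufb4c and the 19 pseudogenes and copies, and Ndufa4l2 also had none on the VC design. No member spot was saturated, and no member array was dropped as an outlier. Probes well above background made up 67% to 70.3% of each VC or ddH2O array and 60.9% to 65.6% of each RA or DMSO array, and the number of arrays limits the precision.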

How the data were processed

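Cy3-labelled RNA of 12 samples was hybridised to 2 Agilent 1-colour designs. Per the file headers, the authors deposited intensity values that Feature Extraction 10.7.3.1 had background-subtracted (processed signal). The authors' deposited series values, on a log2 scale, served as an alternative; no source used here gives how they were normalised. The log2 intensity was set relative to each array's 75th percentile over non-control spots, flagged outlier spots were dropped, and spots of a probe were averaged. Probes were named by transcript accession through RefSeq (GRCm38.p6), 27479 of 41174 for VC and 27235 of 55681 for RA. The brightest probe stood for a gene, and genes well above background on at least 3 of 6 arrays were fitted with limma 3.58.1 in R 4.3.3. The code was tested on simulated data. Members and lists were chosen with earlier results of these data known. By rule, the text names each member called for VC, called higher or not called for RA, the 4 largest falls per complex, catalytic subunits, isoform families, and up to 3 falls and 3 rises of other lists; Tfam, Gabpa and Yy1 were named after their values were seen. One member is not reported by name here. Alternatives covered scaling, background, filters, probes, slides, replicates and the deposited series values.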

Additional observations from a re-analysis of the deposited data

How the results depend on the processing

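Of the alternatives tried on the members named for either comparison, 25 values lost a call, 34 gained one and 22 changed direction with a call on either side. The other 623 kept their side of the threshold. Those among them without a call in either fit include values whose direction turned. For RA, members called lower numbered 47 with quantile normalization and 12 with at least a 2-fold change required as well, when 12 were called in all. Members called higher numbered 1 with median scaling, 0 with spike-in scaling, and 9 both with quantile normalization and in the authors' deposited values. The RA median was -0.921 with median scaling, -0.968 with spike-in scaling, -0.244 with quantile normalization, -0.692 with normexp with or without spots of high local background, -0.242 in the deposited values and -0.628 over all detected probes. For VC, 5 members were called with median scaling and with trend and robust variance, 2 with spike-in scaling, on all-6-array detection and with the mean over probes, and 0 with normexp, without a filter and with the slide as a fixed block. Leaving out one array gave 0 to 1. The VC median was 0.0994 with median scaling, 0.112 with spike-in scaling, -0.00705 with quantile normalization, -0.00863 in the deposited values and -0.282 with normexp, where limma called 0 of 14522 genes and 0 members had an unadjusted p under 0.05; without spots of high local background the median was 0.05. The cause of these differences was not tested beyond the shift each scaling makes.

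In RA, directions of members turned with quantile normalization for 14 members, with median and spike-in scaling for 5 each and with normexp for 2. Those with a call on either side are as follows. With quantile normalization and in the deposited values, in that order, Atp5g3 was at 0.274 and 0.281, Cox4i1 at 0.281 and 0.26, Cox7a2l at 0.095 and 0.101, Cox7b at 0.012 and 0.013, Ndufa12 at 0.263 and 0.263, Ndufa13 at 0.289 and 0.281, and Ndufa4 at 0.065 and 0.07. With quantile normalization Atp5mpl was at 0.005, Ndufa1 at 0.074 and Uqcr11 at 0.082. With median and spike-in scaling Atp5pb was at -0.145 and -0.191 and Ndufab1 at -0.032 and -0.078. With median scaling Cox8c was at -0.274 and Ndufb7 at -0.304. Cox6a2 was at 0.144 with both normexp settings.

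The labels number the replicates without naming pairs. The deviations of same-numbered samples correlated at -0.116 to 0.0604, and those of different-numbered samples at -0.0582 to 0.116. No effect shared by a replicate number was visible, which cannot show whether the samples were paired. With the replicate block, 0 members were called for VC and 68 lower and 2 higher for RA.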
